A study of Homo sapiens with 2 samples.

Results

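The human miRNAs numbered miR-3115 to miR-3202 entered the miRNA catalogue mainly from small RNA sequencing and mostly have no established function. Of 1273 named human miRNA probes on the arrays, 95 carried such a number, any letter or arm included, and they were chosen by name alone. They covered 87 of the 88 numbers in that range, and 1 of the 95 names a pair of miRNAs (miR-3180 and miR-3180-3p). RNA came from H460 cells, an established human large cell lung carcinoma line of the non-small cell group, kept in DMEM with fetal bovine serum and given either vehicle or sulforaphane for 48 hours. Sulforaphane, found in broccoli and its relatives, is an isothiocyanate known to activate NRF2, a regulator of antioxidant genes. The sources used here give no dose. Each condition was measured on 1 one-colour LNA array labelled with Hy3, so a difference between the arrays has no spread between cultures to be set against, no p-value is given, and the number of arrays limits the precision.

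A miRNA is cut from a hairpin transcript, and one strand of the resulting duplex, named 5p or 3p for its arm, is loaded into an Argonaute protein. It then represses mRNAs that pair with its seed, which is bases 2 to 8 from its 5′ end. A miRNA that is named without an arm is one for which a single product was catalogued. Levels below are the authors' normalized intensities, which are background-subtracted intensities divided by 1 factor per array. A probe was counted as detected when it exceeded the 95th percentile of that array's 143 probes for viral miRNAs, which uninfected human cells do not make. That floor lay at 6.44 with vehicle and 5.52 with sulforaphane. The brightest viral probe read 108 and 151, above every member, so passing the floor does not prove that a probe's own target was present. Probe brightness also depends on the probe, so ranks below order readings and not the abundance of miRNAs. In such bulk RNA, fewer cells that make a miRNA and less of it per cell cannot be told apart.

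Against 17.8% of all human miRNA probes, 7 of the 95 members (7.37%) exceeded the floor on at least 1 array. Their mature sequences are shown because these are the members with a reading above the floor. They are the RefSeq sequences of GRCh38.p14, written 5′ to 3′ with the seed in capitals:
miR-3175: cGGGGAGAgaacgcagugacgu
miR-3182: gCUUCUGUaguguaguc
miR-3178: gGGGCGCGgccggaucg
miR-3202: uGGAAGGGagaagagcuuuaau
miR-3123: cAGAGAAUuguuuaauc
miR-3146: cAUGCUAGgauagaaagaaugg
miR-3171: aGAUGUAUggaaucuguauauauc

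No 2 of these 7 share a seed, and none shares its seed with another human miRNA that has a probe and a RefSeq sequence. The longest run of bases that any of the 7 shares with another such miRNA was 10, between miR-3182 and miR-3675-5p, whose probe read 0.484 with vehicle and 0.565 with sulforaphane. For the other 6 the longest run was 7 or 8 bases.

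The members were mostly dim. With vehicle 6 of 95 (6.32%) were above the floor, against 14.3% of all human miRNA probes. With sulforaphane 5 of 95 (5.26%) were above it, against 16.7%. The viral probes that set the floor passed it at 5.59% on each array, a share fixed by the chosen percentile. The members' share was thus close to that of probes with no known target in these cells. On both arrays 4 members (4.21%) were detected, against 13.2% of human probes. The median member read 0.426 with vehicle and 0.524 with sulforaphane, below the medians of all human probes (0.762 and 0.798). On the vehicle array 66 members read under 1, and on the sulforaphane array 70 did. The medians of all human probes are also under 1, so such readings are not particular to the members. The signal above local background was smaller than that background itself for 41 members with vehicle and for 49 with sulforaphane. The same count over all human probes is not given here.

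Other number ranges are given for comparison. Among the older human miRNAs miR-549 to miR-663, 7 of 135 (5.19%) were above the floor with vehicle and 10 (7.41%) with sulforaphane. Among the later miR-4251 to miR-4330, 11 of 80 (13.8%) and 12 (15.0%) were. For miR-1 to miR-548 the shares were 20.0% and 22.9%. These are counts over probes of single arrays and were not tested against each other.

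**Figure D1:**
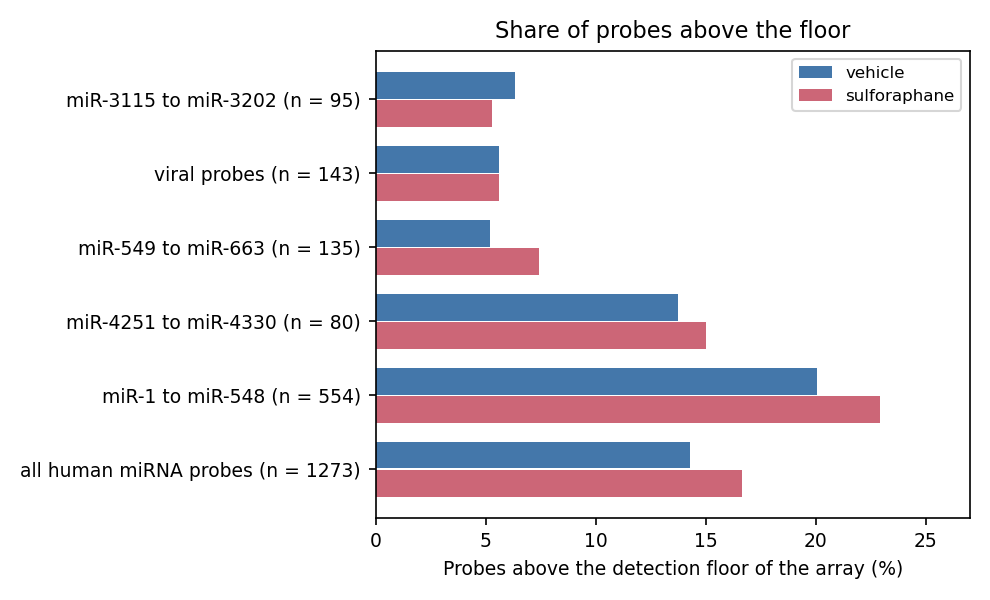
Bars give the percent of probes above the detection floor on the vehicle array (blue) and the sulforaphane array (red), for the members, the viral probes that set the floor and 4 other sets, with the number of probes in brackets. The members (6.32% and 5.26%) lie near the viral probes (5.59% on each array, fixed by the chosen percentile) and under all human miRNA probes (14.3% and 16.7%).

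All 7 detected members carry names without an arm. There are 57 such members, while the 15 members named 5p and the 23 named 3p were all under the floor on both arrays. Human probes outside the members that were detected do include arm names, let-7i-5p and miR-22-3p among them. Shares by arm name over all human probes are not given here, so no effect of the arm can be read from these counts. The highest 3p reading with vehicle was 3.81 (miR-3186-3p) and the highest 5p reading was 2.35 (miR-3129-5p).

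The brightest member was miR-3175. Its RefSeq mature sequence lies on chr15:92904408-92904429, plus strand, inside the span of CHD2, which encodes a chromatin remodeller. It gave 48.9 for vehicle and 69.5 for sulforaphane (log2 ratio 0.51), and ranked 24th and 23rd among the 1273 human probes. Both readings were far above the floors, and the sulforaphane one was the higher.

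miR-3182 followed, at chr16:83508349-83508365, plus strand, inside the span of CDH13, the gene of T-cadherin. It gave 43.8 for vehicle and 38.9 for sulforaphane, with a log2 ratio of -0.17. Before normalization its readings were 4880 and 4820.5 background-subtracted units, which are nearly equal, so the lower normalized value comes with the larger factor of the sulforaphane array (124 against 111.5).

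miR-3178, at chr16:2531979-2531995, minus strand, lies outside any other gene of the RefSeq table. Its reading was 24.8 for vehicle and 38.5 for sulforaphane. The log2 ratio of 0.63 was the highest among the 4 members detected on both arrays. Its 17 bases hold 15 G or C.

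miR-3202 has 2 copies that face each other on chromosome X, at chrX:153981105-153981126 on the plus strand and chrX:153981148-153981169 on the minus strand, within the span of TMEM187. One probe cannot tell the copies apart. Its reading was 9.25 for vehicle and 8.48 for sulforaphane, with a log2 ratio of -0.13, so the arrays lay close together. Of the 4 members detected on both arrays it was the nearest to the floors.

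None of these 4 members reached 2-fold in either direction. Among the 168 human miRNA probes detected on both arrays, 3.57% had a ratio of 2-fold or more in the higher direction and 1.19% in the lower direction. The 4 members had a median log2 ratio of 0.19, with 2 above and 2 below 0. The 168 had a median of 0.38 with quartiles of 0.12 and 0.54, and 139 of them lay above 0. The ratios of miR-3175 and miR-3178 were thus above the median of detected miRNAs and those of miR-3182 and miR-3202 below the lower quartile. The SD of the log2 ratio was 0.20 between the 41 spike-in probes above the floor, which measures differences between probes of this pair of arrays and holds no variation between cultures.

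The scale decides the sign of some of these ratios. Over 6 other scalings the ratio of miR-3182 ranged from -0.87 to -0.02 and stayed below 0. That of miR-3202 ranged from -0.83 to 0.03, above 0 without normalization alone. That of miR-3175 ranged from -0.20 to 0.66 and that of miR-3178 from -0.07 to 0.78, each below 0 under spike-in scaling alone.

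**Figure D2:**
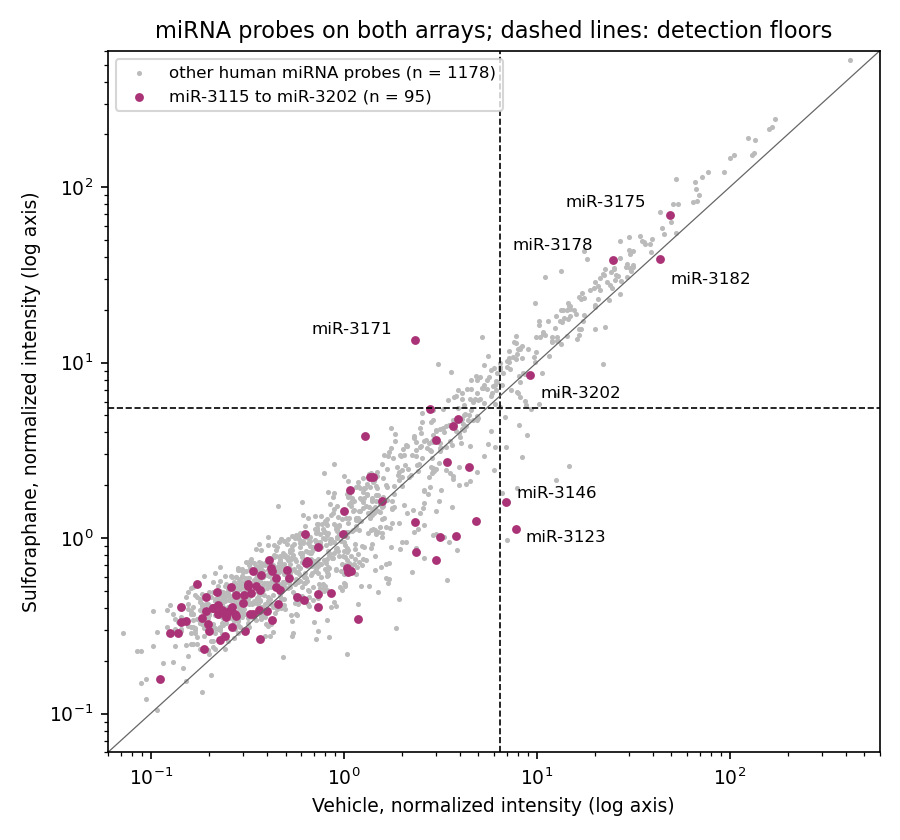
Each point is a human miRNA probe, with its normalized intensity on the vehicle array (horizontal log axis) and the sulforaphane array (vertical log axis). Members are purple, other human probes grey, dashed lines mark the floors (6.44 and 5.52) and the solid line marks equal values. Of the 95 members, 4 lie above both floors, 2 to the right of the vehicle floor alone and 1 above the sulforaphane floor alone.

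The other 3 detected members passed the floor of 1 array alone, and there the readings of the arrays lay far apart. On the vehicle array alone 2 members (2.11%) were detected, against 1.1% of human probes, and on the sulforaphane array alone 1 (1.05%), against 3.46%.

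miR-3171 read 2.35 with vehicle and 13.4 with sulforaphane. It lies at chr14:27633246-27633269, minus strand, inside the spans of the non-coding genes MIR3171HG and LINC00645. Against the vehicle floor it was at least 2.09-fold higher with sulforaphane. In the authors' deposited table its fold change was 5.70, the highest of all 2661 probes, but its denominator is a reading under the floor. The background-subtracted intensities were 262.5 and 1664.5 units, and the local background was 45 and 57.5 units, near the medians of human probes (41.0 and 61.0).

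miR-3123 went the other way, with 7.78 for vehicle and 1.12 for sulforaphane. It lies at chr1:241132320-241132336, plus strand, inside the span of RGS7, a regulator of G protein signalling. Against the sulforaphane floor it was at least 1.41-fold lower. Its measured log2 ratio of -2.79 was the second lowest among the 1273 human probes. The intensities were 867 and 139 units over local backgrounds of 42 and 59 units.

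miR-3146 read 6.97 with vehicle and 1.61 with sulforaphane, and it was at least 1.26-fold lower. It lies at chr7:19705366-19705387, minus strand, inside the span of POLR1F, which encodes an RNA polymerase I subunit. Its intensities were 777.5 and 200 units over backgrounds of 44.5 and 58 units. The vehicle reading exceeded the floor of 717.6 units by a small margin.

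Across the 6 other scalings the bound of miR-3171 ranged from 1.28 to 2.32, that of miR-3123 from 1.27 to 2.30 and that of miR-3146 from 1.14 to 2.06. The measured log2 ratios kept their sign under all 6, from 1.81 to 2.66 for miR-3171, from -3.50 to -2.35 for miR-3123 and from -2.82 to -1.83 for miR-3146. With the higher of both floors used for both arrays, the bounds were 2.09 for miR-3171, 1.21 for miR-3123 and 1.08 for miR-3146. Each of these 3 miRNAs had a single probe row, so its reading cannot be set against a second probe's.

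Among markers of other cell types, 2 of 5 muscle miRNAs were above the floor with vehicle alone, as were 1.1% of human probes. miR-206 gave 6.61 for vehicle and 1.80 for sulforaphane, and miR-208b gave 7.87 and 1.93. Both vehicle readings lay near the vehicle floor of 6.44. The other 3 were under the floor on both arrays and read higher with sulforaphane, miR-1 at 0.179 and 0.448, miR-133a at 0.300 and 0.524 and miR-133b at 0.731 and 1.198. The summed level of the 5 was 15.7 and 5.90. Of 6 blood markers none was above the floor on either array, with summed levels of at most 5.38. Of 3 neuronal and liver markers 0 passed with vehicle and 1 with sulforaphane, with sums of 12.0 and 9.72. The part of other cells in the values of miR-3123 and miR-3146 was not tested. The 7 epithelial markers, among them miR-200c-3p, were under the floor on both arrays, while all 5 miRNAs that are broadly expressed in carcinoma lines were above it, miR-21-5p at 93.5 and 122 among them.

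**Figure D3:**
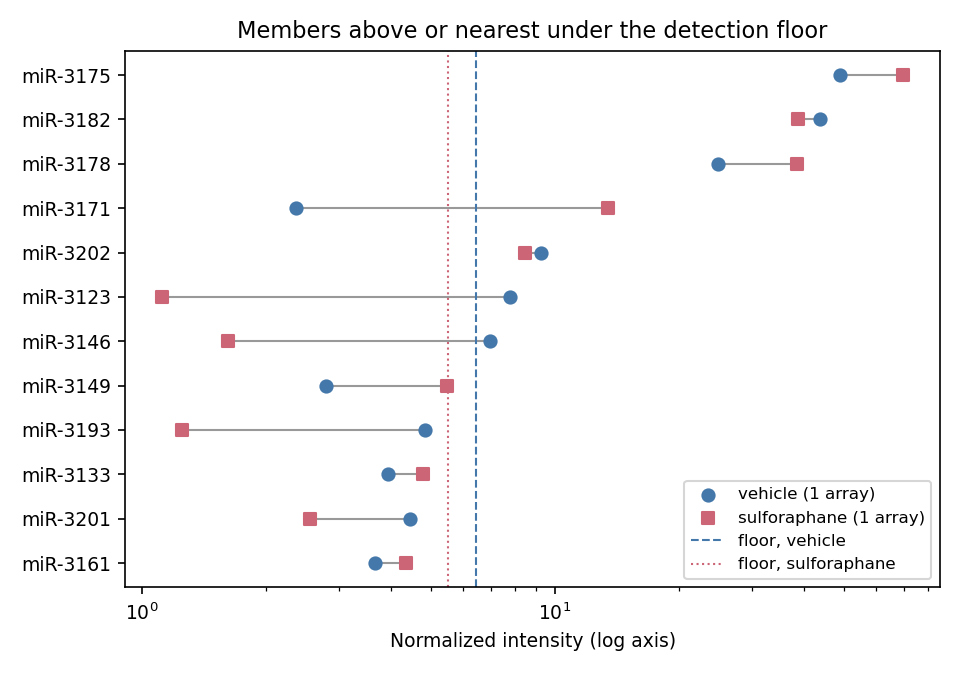
Normalized intensity (log axis) of the 7 detected members and of the 5 members nearest under the floor, with vehicle as a blue circle, sulforaphane as a red square and both floors as vertical lines. miR-3171, miR-3123 and miR-3146 cross between the sides of the floors, and the other 4 detected members are right of both.

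**Figure D4:**
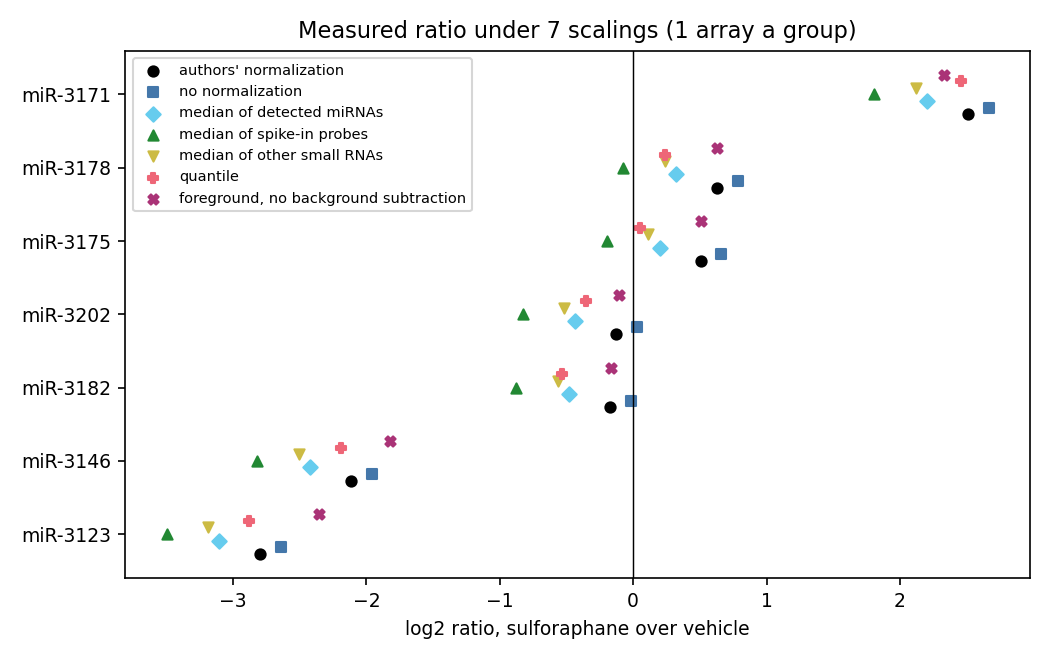
Measured log2 ratio of sulforaphane over vehicle for the 7 detected members under the authors' normalization and 6 other scalings, with 1 array a group. The ratios of miR-3171, miR-3146 and miR-3123 keep their sign under each, and miR-3175, miR-3178 and miR-3202 change theirs under 1 scaling each.

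Just under the floor, the nearest members with vehicle were miR-3193 (4.83), miR-3201 (4.47) and miR-3133 (3.94). With sulforaphane they were miR-3149 (5.48), miR-3133 (4.79) and miR-3161 (4.35). miR-3149 thus missed the sulforaphane floor of 5.52 by less than 0.1 and read 2.79 with vehicle. miR-3193 read 1.25 with sulforaphane, and miR-3133 read close to its vehicle value there.

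The other 88 members were under the floor on both arrays, and their ratios are not measured folds. Of all 95, a measured ratio at or beyond 2-fold was found for 11 in the higher direction, against 10.4% of human probes, and for 8 in the lower direction, against 4.95%. Among the 88, the lowest ratio was -2.00 (miR-3174) and the highest 1.64 (miR-3152-3p, from readings of 0.175 and 0.544). The 6 of them with a ratio of -1 or lower read from 1.19 to 4.83 with vehicle, and the 10 with a ratio of 1 or higher read from 0.126 to 1.29. With sulforaphane the former read from 0.347 to 1.25 and the latter reached 3.80. Over all 95 members the log2 ratio and the log2 mean level had a Spearman correlation of -0.43, and over the 1178 other human probes of -0.29. Both are descriptions across probes that share the same 2 arrays, and the level enters both measures.

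Exact RefSeq mature sequences were found for 86 members, and length was compared after the members' values had been seen. Of the 7 detected, 3 (miR-3182, miR-3178 and miR-3123) are 17 bases long, a length that 5 of the 86 have. The other 2 were under the floor, and are shown to set against the 3 above:
miR-3201: gGGAUAUGaagaaaaau
miR-3168: gAGUUCUAcagucagac

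miR-3201 gave 4.47 for vehicle and 2.55 for sulforaphane. miR-3168 gave 0.112 and 0.157, the lowest member on each array. The 5 short members therefore spanned the whole range of members' levels except miR-3175. Of the 81 longer members, 4 (4.94%) were detected on at least 1 array. Among other human miRNAs with a RefSeq sequence, 6 of 30 (20.0%) of those with 17 bases or fewer and 170 of 880 (19.3%) of the longer ones were detected, shares that lie close together. Across the 86 members length and log2 mean level had a Pearson correlation of -0.30 and a Spearman correlation of -0.14. For base composition the shares were closer. Of 23 members with over 60% G and C, 2 (8.70%) were detected (miR-3175 and miR-3178), and of the other 63, 5 (7.94%) were. Shares by base composition over other human miRNAs are not given here.

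**Figure D5:**
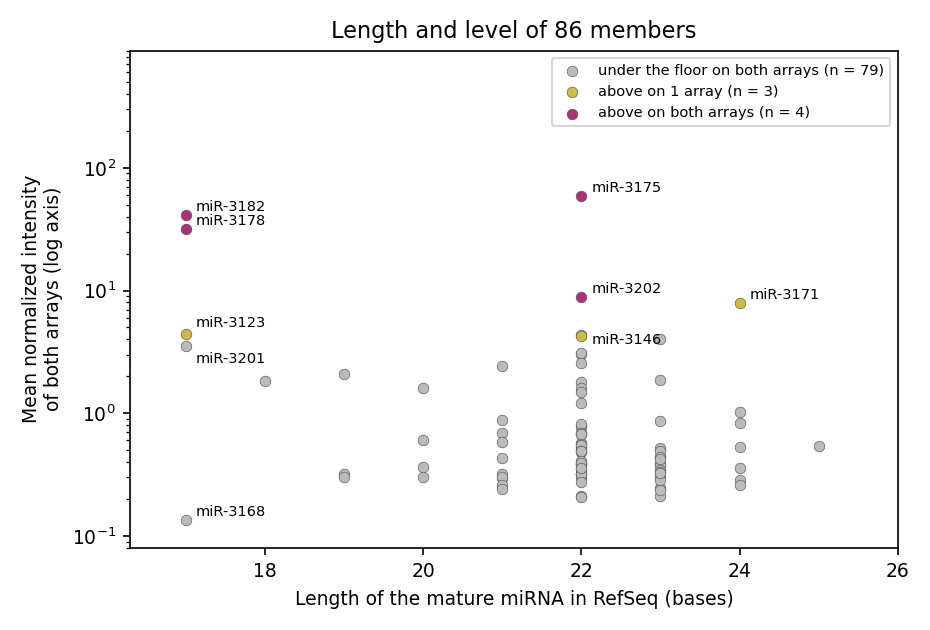
Length of the RefSeq mature sequence against the mean normalized intensity of both arrays (log axis) for 86 members, coloured by detection. Of the 5 members of 17 bases, 2 were above the floor on both arrays, 1 on the vehicle array alone and 2 on neither.

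By position, 65 of the 86 matched members lie within the span of a protein-coding gene, and 5 of these (7.69%) were detected. Outside such genes 2 of 21 (9.52%) were. Of all human miRNA probes 17.8% were detected on at least 1 array, and their shares by position are not given here. The spanning genes, taken without regard to strand, include several with a part in stress responses. The following members were picked after their values had been seen. miR-3128 lies inside the span of NFE2L2, which encodes NRF2 itself, and read 0.448 with vehicle and 0.528 with sulforaphane. miR-3189-3p lies inside GDF15, a stress-induced cytokine gene, and read 0.318 and 0.548. miR-3190-3p and miR-3191-3p lie inside BBC3, the gene of the apoptosis effector PUMA. The former read 0.202 and 0.294 and the latter 0.143 and 0.331. miR-3173-3p lies inside DICER1, the gene of the enzyme that cuts miRNA hairpins, and read 0.278 and 0.359. All of these readings were under the floor, so a difference in any of them was not detectable at these signals.

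Some members lie opposite well-known miRNA genes, and their sequences are printed to show what the strands share. miR-3184 is transcribed from the strand opposite miR-423, and miR-3184-5p shares 21 complementary bases with miR-423-3p as well as its seed with miR-423-5p:
miR-3184-5p: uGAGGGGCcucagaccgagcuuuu
miR-423-5p: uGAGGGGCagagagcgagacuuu
miR-423-3p: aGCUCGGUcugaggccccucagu

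miR-3184-5p read 0.996 with vehicle and 1.06 with sulforaphane, under the floor on both arrays. miR-423-5p read 24.1 and 27.7, and miR-423-3p read 14.8 and 21.1, both above it. The shared seed was therefore not accompanied by signal on the miR-3184-5p probe like that of the miR-423-5p probe. The complementary run cannot be read this way, since a probe that pairs with miR-3184-5p has bases like those of miR-423-3p. Of the 11 members that share a seed with another probed human miRNA, miR-3184-5p was the one whose partner was detected.

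miR-3120, on the plus strand, lies opposite miR-214, which is on the minus strand. The locus is inside the spans of the dynamin gene DNM3 and of DNM3OS, a non-coding RNA antisense to DNM3. All 21 bases of miR-3120-3p are complementary to miR-214-5p:
miR-3120-3p: cACAGCAAguguagacaggca
miR-214-5p: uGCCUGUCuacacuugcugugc

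miR-3120-3p read 0.197 with vehicle and 0.323 with sulforaphane. For vehicle and sulforaphane, miR-214-5p gave 1.197 and 0.734, and miR-214-3p gave 0.933 and 1.31. All 3 were under the floor on both arrays, so neither strand of this locus was detected.

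Of the other members with a neighbouring miRNA gene within 10000 bases, none but miR-3202, whose neighbour is its own second copy, was detected. In all 19 members had such a neighbour and 14 have several loci with the same mature sequence. The copies of miR-3179 and miR-3180 on chromosome 16 also neighbour copies of miR-3670. miR-3179 read 0.278 and 0.476, miR-3180-5p 0.426 and 0.653 and miR-3670 0.830 and 1.84, under the floor throughout.

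Both arms were probed for 6 members' hairpins, and no arm was detected. On at least 1 array 17.8% of all human miRNA probes and 7.37% of members were detected. Shares over other human hairpins with both arms probed are not given here. In miR-3186 the 3p arm read 3.81 with vehicle and 1.02 with sulforaphane, and the 5p arm 0.341 and 0.649. In miR-3144 the 3p arm read 3.42 and 2.72 and the 5p arm 0.341 and 0.367. In the other 4 hairpins every reading was under 2.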

How the data were processed

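Per the labels' protocols, total RNA of H460 cells was extracted (TRIzol, then a miRNeasy column), carried the dye Hy3 and was hybridised to miRCURY LNA arrays, 1 array per group. Per the file headers, the workbook deposited by the authors holds foreground intensity, background-subtracted intensity, a normalized value and a fold change. In this deposited table each normalized value is a ratio, the background-subtracted intensity over 1 factor per array (111.5 for vehicle, 124 for sulforaphane). The sources used here do not name the scanner, the software or the basis of the factor. A single factor leaves in place any difference between arrays that depends on intensity. The series value table matched the workbook for all 2661 probes.

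Members were taken by name. The floor was the 95th percentile of viral probes, the comparison the log2 ratio without a pseudocount, and the size rule 2-fold, since 1 array per group allows no test. A bound sets the detected value over the other array's floor. No member was at the scanner limit of 65535. Members detected on at least 1 array, the 3 nearest under each floor, and members whose neighbour or other arm was detected were named, with miR-3120. Other members named in the text, among them extremes, arm pairs, copies of one locus, short members and members inside stress genes, were chosen after their values were seen. Members, lists and rules were chosen with earlier results of these data known. Sequences and gene spans came from RefSeq tables of GRCh38.p14. Exon positions and the strand of the spanning gene were not used, so a member may lie on the strand opposite that gene. The counting was tested on simulated data. Python 3.11.15, numpy 2.4.6 and pandas 2.3.3 were used. Alternatives were 5 scalings, foreground without background subtraction, 4 floors, the floor added before the logarithm, and size rules of 1.5-fold and 3-fold.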

Additional observations from a re-analysis of the deposited data

How the results depend on the processing

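No paired analysis was possible because each group held 1 array. The 7 detected members and the array each was detected on were the same under all 6 other scalings and with 1 common floor. By construction 4 of these scalings multiply an array's values and floor alike. The floor itself changed the counts. At the 90th percentile of viral probes, 5 members were above it with vehicle alone and 4 with sulforaphane alone, against 2.36% and 2.59% of human probes. At the 99th percentile these counts were 0 and 0 (0.314% and 0.786% of human probes), and miR-3175, miR-3178 and miR-3182 alone were above it. With the median of all probes as the floor, the share of members above it was 32.6% with vehicle and 28.4% with sulforaphane, against 49.6% and 49.2% of human probes. On both arrays 25 members passed (43.7% of human probes), with vehicle alone 6 (5.97%) and with sulforaphane alone 2 (5.50%). Among the 25 a ratio of 2-fold or more was found for 2 in the higher and 6 in the lower direction. These are mostly readings under the viral floor. The same counts among the 556 human probes that passed on both arrays are not given here, so nothing particular to the members can be read from them. At 1.5-fold, 1 member (miR-3178, log2 ratio 0.63) was higher. The upper quartile of human miRNA probes detected on both arrays was 0.54. Their share at 1.5-fold is not given here. The median log2 ratio of members detected on both arrays was -0.12 after scaling by detected miRNAs, -0.51 by spike-in probes, -0.20 by other small RNAs and -0.15 after quantile normalization, while it was 0.51 at the 99th percentile, where 3 members were left. These scalings shift nearly all probes: the median of detected human miRNAs was 0.07, -0.32, -0.01 and 0.02 under them, against 0.38. A constant factor per array, used in the first 3, leaves the gap between the members and all detected miRNAs fixed. At the 99th percentile the gap turned, with 0.51 for 3 members against 0.42 for 67 human miRNAs. Signal over background limits the other 88 members, whose differences were not detectable.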
